A study of Mus musculus with 4 samples.

Results

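The genes of MHC class II antigen presentation were followed across the immune cells of melanomas that had lost their response to T cell therapy and across 3 interventions meant to restore it. The group held 10 genes chosen by name, H2-Aa, H2-Ab1, H2-Eb1, H2-Eb2, Cd74, Ciita, H2-DMa, H2-DMb1, H2-Oa and H2-Ob, and all 10 were among the 12584 genes measured. Live CD45+ cells were sorted and profiled one by one from RTT tumours, grown from a derivative of the ovalbumin-expressing mouse melanoma line YUMM1.7OVA that no longer responds to targeted therapy. The hosts were Rag2-/- mice, which form neither T nor B cells, and each received OT-1 CD8+ T cells, which recognise ovalbumin, as adoptive cell transfer (ACT). Tumours were collected 72 h later, on day 10. Each of the 4 groups was a single library made from a pool of 3 tumours. CTRL tumours carried an mCherry vector and received no drug. In IRF3/7 tumours the cancer cells overexpressed both of these interferon regulatory factors. COX2i tumours carried the mCherry vector and were treated with celecoxib, an inhibitor of the prostaglandin-producing enzyme COX2. COX2i + 5-AZA tumours carried the mCherry vector and received celecoxib with 5-azacytidine, an inhibitor of DNA methylation. The labels gave no age for the mice.

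MHC class II molecules display peptides from ingested material to CD4+ T cells. An alpha and a beta chain form each molecule, and in the mouse H2-Aa and H2-Ab1 encode the pair called I-A, while H2-Eb1 encodes the beta chain of I-E and H2-Eb2 a related beta chain. Mice of the b haplotype make no I-E alpha chain. By the paper the hosts had a B6 background, which is of this haplotype. Transcripts of H2-Eb1 therefore say nothing about I-E at the surface of these cells. Cd74 encodes the invariant chain, which guards the groove of new class II molecules, H2-DMa and H2-DMb1 encode the DM complex that exchanges the remnant of that chain for peptide, and H2-Oa and H2-Ob encode DO, which restrains DM. Ciita encodes the transactivator that switches on the other genes and is itself induced by interferon-γ in macrophages and monocytes, whereas dendritic cells express it constitutively.

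Of the members, 8 lay in 1 stretch of 249.1 kb on mouse chromosome 17 (GRCm38, 34092340 to 34341412), in the order H2-Oa, H2-DMa, H2-DMb1, H2-Ob, H2-Ab1, H2-Aa, H2-Eb1 and H2-Eb2, and Ciita lay on chromosome 16 (10480059 to 10528418). H2-Aa was the only one of the 8 on the minus strand. RefSeq promoter windows (GRCm38.p6, 250 bases before to 50 after the start) were at hand for 7 members, with 2 windows for H2-DMa, so 8 windows in all. The CIITA complex acts through a conserved promoter module that ends in a Y box, an inverted CCAAT element, preceded by an X box. The letters GATTGG, which hold that element, were present on either strand in at least 1 window of all 7 members and in 16.1% of 32851 RefSeq windows. For H2-DMa only 1 of its 2 windows held them, 199 bases before the start, and the share over all windows counts single windows. The letters AGCAAC, a part of the X box, were present in windows of 4 members (H2-Oa, H2-Ob, H2-Eb1 and H2-Eb2) and in 14.8% of all windows, and 2.64% of all windows held both. The stretches that follow are shown because they hold these letters, both sets in H2-Eb1, H2-Eb2 and H2-Ob and GATTGG alone in H2-Aa, each 5′ to 3′ on the gene's own strand and upstream of the start, with matches to GATTGG and AGCAAC in capitals.
H2-Eb1 (chr17:34305757-34305832, plus strand): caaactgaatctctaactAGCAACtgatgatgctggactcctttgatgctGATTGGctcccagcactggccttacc
H2-Eb2 (chr17:34325524-34325599, plus strand): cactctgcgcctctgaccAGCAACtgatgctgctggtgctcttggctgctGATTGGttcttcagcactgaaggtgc
H2-Ob (chr17:34238797-34238872, plus strand): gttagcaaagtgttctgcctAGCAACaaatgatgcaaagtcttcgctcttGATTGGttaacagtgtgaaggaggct
H2-Aa (chr17:34287847-34287922, minus strand): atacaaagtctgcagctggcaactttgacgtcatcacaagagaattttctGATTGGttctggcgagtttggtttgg
In H2-Eb1 and H2-Eb2, 26 bases lay between the end of AGCAAC and the start of GATTGG, and in H2-Ob there were 24. GATTGG began 60 bases before the start of H2-Eb1, 101 before that of H2-Eb2, 58 before that of H2-Ob and 49 before that of H2-Aa. These are matches of letters, and binding was not measured here.

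Depth differed between libraries, from 26356819 UMIs (unique molecular identifiers, 1 per counted molecule) in the 6329 cells of IRF3/7 to 78722763 in the 9133 cells of COX2i. CTRL held 8953 cells and COX2i + 5-AZA 10032. Between 2005 and 2816 cells of a library shared their droplet barcode with a cell of another library, and 0 shared the full barcode that includes the probe tag. A level is given in CPM (counts per 1000000 UMIs of the cells considered). Ranges in parentheses are exact 95% limits that cover no error other than counting. Without replicate libraries no test between conditions was possible, and each difference is one between 2 libraries. Each probe set captures its gene with its own efficiency, so levels were compared between cells and libraries and never between genes. Cell classes were those deposited by the authors, who clustered the cells on the most variable genes. Whether the members were among these genes is not stated, but 1 class (TAM_H2Ab1) was named for a member. Levels by class are therefore a description.

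Dendritic cells held the highest levels of the class II chains, and the monocyte and macrophage classes spread over a wide range below them. The class II sum, the UMIs of H2-Aa, H2-Ab1 and H2-Eb1 together, stood between 48140 and 60528 CPM in cDC2, which present antigen to CD4+ T cells. It was 39012 CPM in the 79 cDC1 of COX2i and 37630 CPM in the 60 of COX2i + 5-AZA, cDC1 being the cells that specialise in cross-presentation. CCR7+ DC, the mature migratory state, stood at 33731 CPM (66 cells, IRF3/7) and 24786 CPM (87 cells, COX2i + 5-AZA). The monocyte class Monocyte_1 stood at 20476 CPM in IRF3/7, 20005 CPM in COX2i and 17148 CPM in COX2i + 5-AZA. Its 44 CTRL cells, fewer than the 50 asked for elsewhere, gave 20489 CPM. Across the 4 libraries this class thus stayed between 17148 and 20489 CPM. Among macrophages, the class II sum ran from 430.1 CPM in TAM_C1q of CTRL to 18858 CPM in the 105 cells of the class Macro in COX2i + 5-AZA, among units of at least 50 cells. The plot of level by class shows the classes with at least 50 cells.

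**Figure D1:**
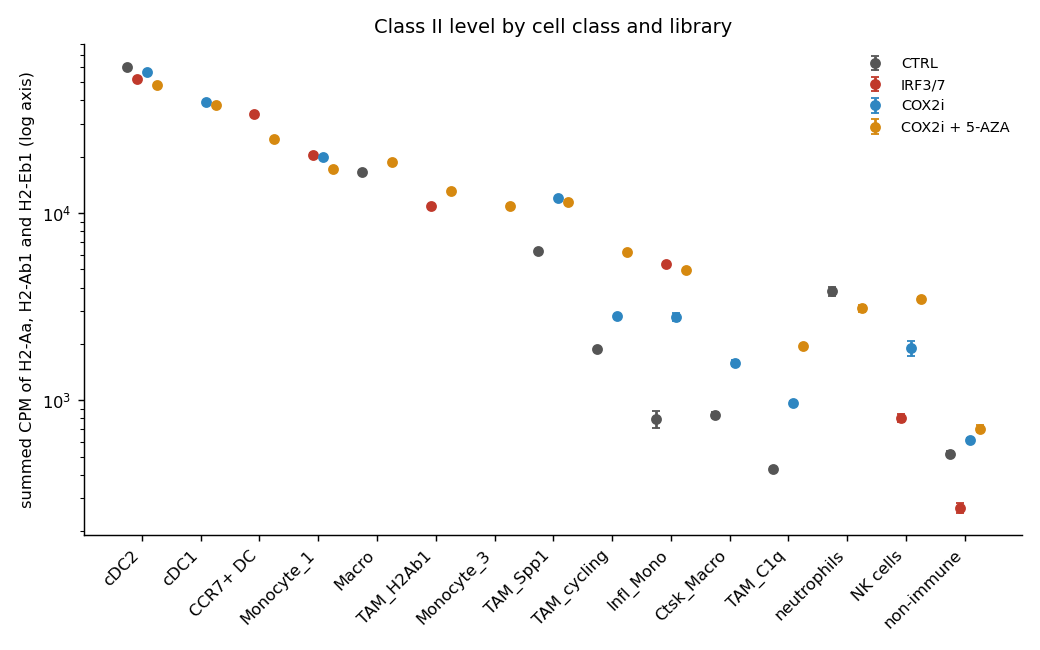
Summed level of H2-Aa, H2-Ab1 and H2-Eb1 (CPM, log axis) in each cell class with at least 50 cells, by library, with exact 95% counting intervals. The 4 cDC2 values lie between 48140 and 60528 CPM, whereas TAM_C1q rises from 430.1 CPM in CTRL through 970.4 CPM in COX2i to 1959 CPM in COX2i + 5-AZA.

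Cells that should lack class II set the background. In the non-immune cells that had passed the CD45 gate, the class II sum was 518.8 CPM in CTRL, 265.4 CPM in IRF3/7, 615.6 CPM in COX2i and 705.9 CPM in COX2i + 5-AZA. NK cells stood at 804.6 CPM in IRF3/7. The 430.1 CPM of TAM_C1q in CTRL was therefore below the non-immune level of the same library, and cannot be told from background. In COX2i and COX2i + 5-AZA the class stood above the non-immune level, at 970.4 and 1959 CPM, but below the NK cells of the same libraries, at 1893 CPM (50 cells) and 3486 CPM. Its H2-DMa was not at background, at 126.3 CPM against 15.9 CPM in non-immune CTRL cells. For each UMI of H2-Ab1, TAM_C1q of CTRL held 0.862 UMIs of H2-DMa and non-immune cells of that library 0.0957.

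The cells that carried the class II transcripts differed between the tumours. In CTRL, cDC2 made up 7.20% of cells and held 55.6% of the UMIs of the class II sum, with macrophages at 38.7% and monocytes at 1.51%. In IRF3/7, monocytes held 45.7% and cDC2 33.4%, and a single class, Infl_Mono, held 38.5%. COX2i stayed closer to CTRL, with 40.6% in cDC2, 44.0% in macrophages and 7.68% in monocytes. In COX2i + 5-AZA, monocytes held 50.8%, macrophages 35.9% and cDC2 only 8.28%, and the class Monocyte_1 alone held 47.4% of the UMIs with 36.3% of the cells. Fewer cells of a class and less RNA per cell both enter these shares.

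**Figure D2:**
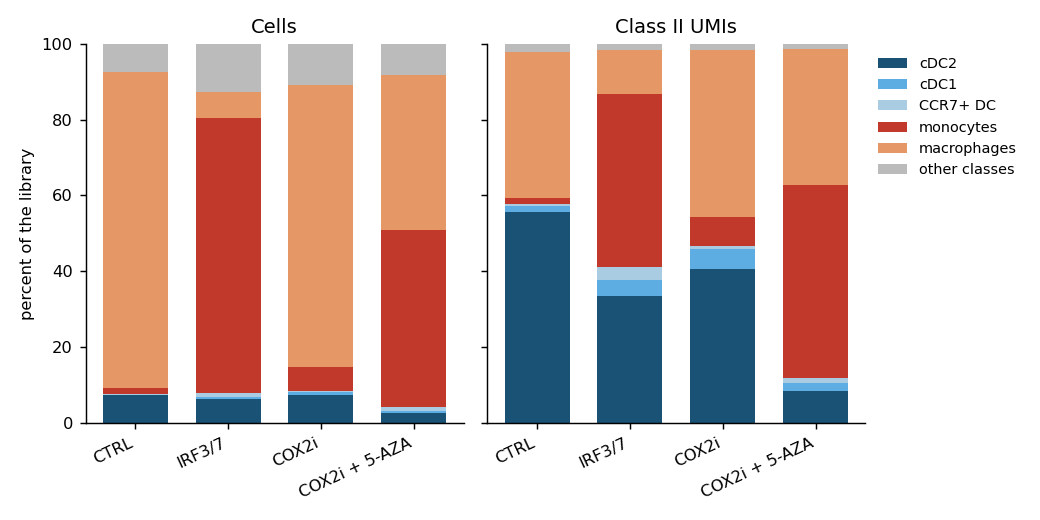
Percent of the cells (left) and percent of the UMIs of H2-Aa, H2-Ab1 and H2-Eb1 (right) that fall in each group of cell classes, as stacked bars by library. cDC2 hold 55.6% of the UMIs in CTRL and 8.28% in COX2i + 5-AZA, where monocytes hold 50.8%.

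Over all monocytes and macrophages, most members were higher in each intervention than in CTRL. The question behind these comparisons was how IRF3/7 in the cancer cells, or COX2 inhibition with or without 5-azacytidine, changed the state of the myeloid cells. The median log2 ratio over all genes was -0.55 in IRF3/7, 0.01 in COX2i and -0.16 in COX2i + 5-AZA against CTRL, so a log2 ratio is to be read against these values. Ciita was at 14.5 CPM in CTRL (795 UMIs), 86.9 CPM in IRF3/7 (1551 UMIs), 43.8 CPM in COX2i (2737 UMIs) and 136 CPM in COX2i + 5-AZA (9332 UMIs). All 3 interventions thus lay above CTRL, by 5.97-fold, 3.01-fold and 9.38-fold. Over these pooled cells the folds of the I-A chains were smaller than those of their transactivator. Within Infl_Mono, the monocyte or macrophage class with at least 50 cells in both CTRL and IRF3/7, the point values ran the other way. There the log2 ratio in IRF3/7 was 1.72 for Ciita (0.91 to 2.67, 12 UMIs in CTRL), 2.84 for H2-Ab1 (2.58 to 3.11) and 2.52 for H2-Aa. The intervals of Ciita and H2-Ab1 overlap narrowly, and the difference between these folds was not tested. H2-Ab1 was at 699 CPM in CTRL, 2086 CPM in IRF3/7, 1222 CPM in COX2i and 3128 CPM in COX2i + 5-AZA, which are folds of 2.98, 1.75 and 4.47.

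H2-Aa followed H2-Ab1 closely, at 754, 2179, 1289 and 3235 CPM in CTRL, IRF3/7, COX2i and COX2i + 5-AZA. H2-Eb1 stood at 777, 2270, 1366 and 3302 CPM in the same order. The invariant chain transcript Cd74 was at 2163, 5692, 3791 and 9264 CPM. These 4 genes kept the order CTRL, COX2i, IRF3/7, COX2i + 5-AZA, with folds over CTRL that lay close to each other, between 2.63 and 2.98 in IRF3/7, between 1.71 and 1.76 in COX2i and between 4.25 and 4.47 in COX2i + 5-AZA. The DM subunits moved the same way. H2-DMa was at 136, 268, 225 and 498 CPM and H2-DMb1 at 39.4, 94.0, 69.6 and 160 CPM.

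The DO subunits, which are best known from B cells and dendritic cells, were low in these cells. H2-Oa stood at 3.66, 3.98, 3.55 and 4.78 CPM, and the counting interval of its log2 ratio to CTRL held 0 in COX2i (-0.04, -0.33 to 0.24). In IRF3/7 the log2 ratio was 0.12 (-0.29 to 0.52), above the -0.55 of all genes, and 0.63 with size factors. In COX2i + 5-AZA it was 0.39 (0.13 to 0.65), and it turned to -0.62 when the class mix was held as in CTRL. H2-Ob was at 3.26, 1.29, 4.85 and 4.02 CPM and was the only member more than 2-fold lower in a library than in CTRL (IRF3/7, 23 UMIs against 178, log2 ratio -1.34, -2.03 to -0.71). Against the shift of all genes that is a smaller difference, and 32.2% of all genes were at least 2-fold lower in this comparison. H2-Eb2 was rarely detected, with 10, 18, 19 and 45 UMIs in the monocytes and macrophages of CTRL, IRF3/7, COX2i and COX2i + 5-AZA.

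**Figure D3:**
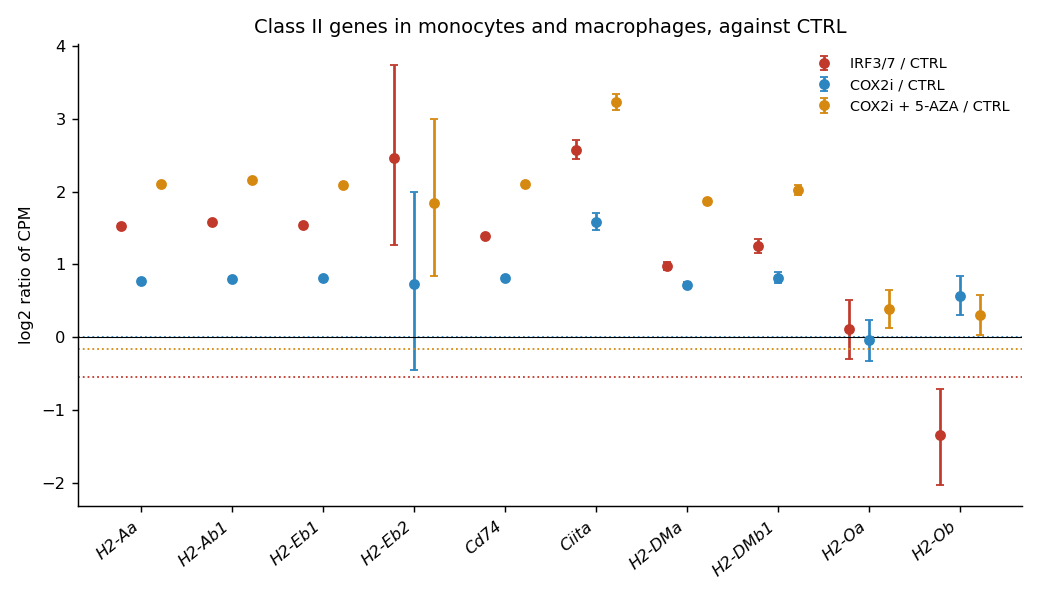
Log2 ratio of CPM against CTRL for each of the 10 members in monocytes and macrophages, with exact 95% counting intervals. Dotted lines mark the median log2 ratio of all genes in the same comparison, and Ciita has the largest ratio of the members with narrow intervals (2.58 in IRF3/7, 1.59 in COX2i, 3.23 in COX2i + 5-AZA).

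Counted by a fold of at least 2, 7 of the 10 members were higher in IRF3/7 than in CTRL, where 9.16% of all genes were. In COX2i 1 of 10 was, Ciita, against 1.93% of all genes. In COX2i + 5-AZA 8 of 10 were (all but H2-Oa and H2-Ob), against 5.65% of all genes. In the non-immune cells, taken as background, 3 of 8 members (Ciita, H2-DMa and H2-DMb1) passed the same fold in that comparison, against 5.53% of genes. All 10 members had at least 20 UMIs in each pair of libraries. The median log2 ratio of the members was 1.46 in IRF3/7, 0.79 in COX2i and 2.06 in COX2i + 5-AZA. The 3 comparisons share the CTRL library.

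These pooled counts joined monocytes and macrophages, whose proportions differed between libraries. In monocytes alone, 0 of 9 members with at least 20 UMIs were at least 2-fold higher in IRF3/7 than in CTRL (5.0% of all genes), and H2-Oa and H2-Ob were at least 2-fold lower (16.9% of all genes). The class II sum of monocytes was 6017 CPM in IRF3/7 and 6623 CPM in CTRL. The 139 CTRL monocytes included 44 of the high class Monocyte_1, whereas 4335 of the 4596 in IRF3/7 were Infl_Mono. In monocytes of COX2i, 6 of 9 members were at least 2-fold higher than in CTRL (3.88% of all genes), and in those of COX2i + 5-AZA 7 of 10 were (4.38%). These counts too compare different mixes of classes. COX2i held 394 Monocyte_1 and 130 Infl_Mono, and COX2i + 5-AZA 3640 and 764, where CTRL held 44 and 93. The level of Monocyte_1 itself was not higher in these libraries than in CTRL. In macrophages alone, 6 of 9 members were at least 2-fold higher in IRF3/7 (439 cells) than in CTRL, against 8.36% of all genes. Of these 439 cells 385 were TAM_H2Ab1, the class named for a member, of which CTRL held 19. The macrophages of CTRL were mostly TAM_C1q (3199 cells), TAM_Spp1 (2347) and TAM_cycling (1457), so this count compares different classes. The counts in macrophages were 1 of 10 in COX2i, Ciita (1.85% of all genes), and 8 of 10 in COX2i + 5-AZA (4.25%).

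Pooled levels were higher again where 5-azacytidine had been added to celecoxib. Against COX2i, COX2i + 5-AZA was at least 2-fold higher for 8 of 10 members, again all but H2-Oa and H2-Ob, and for 6.16% of all genes. The class II sum was 2.49-fold higher (log2 ratio 1.32, 1.31 to 1.32). Within either cell group the count was far lower, at 1 of 10 in monocytes (H2-Eb2, with 24 UMIs against 1 and so not detectably different at this depth, 3.18% of all genes) and 1 of 10 in macrophages (Ciita, 4.89% of all genes). The class II sum of monocytes was 15133 CPM in COX2i + 5-AZA and 15294 CPM in COX2i, and that of macrophages 6396 and 3430 CPM. The background cells were higher too. The median log2 ratio of the members was 0.90 in macrophages, 0.69 in NK cells and 0.36 in non-immune cells. At least 2-fold higher were 1 of 8 members in NK cells (7.8% of all genes) and 1 of 7 in non-immune cells (2.98%). The pooled difference was also smaller when the mix of classes was held fixed. When the 5 classes with at least 50 cells in both libraries were given the cell numbers they had in COX2i, the fold was 1.31 and 0 of 10 members passed 2-fold, and against CTRL the same adjustment over 5 classes took 4.33-fold to 2.19-fold. For Ciita, it took 9.38-fold against CTRL to 3.50-fold and 3.12-fold against COX2i to 1.36-fold. Whether cells changed their level or cells of another level replaced them cannot be told apart from single time points.

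Against IRF3/7, the direction of the difference depended on the setting. The class II sum was 1.48-fold higher (log2 ratio 0.56, 0.56 to 0.57), and 1 of 10 members was at least 2-fold higher (H2-Ob) against 20.8% of all genes. In monocytes 8 of 10 members were at least 2-fold higher (12.4% of all genes), and in macrophages 0 of 10 were (10.5%). The background cells differed between these libraries too, with 8 of 8 members at least 2-fold higher in NK cells (5.94% of all genes) and 7 of 7 in non-immune cells (11.4% of all genes). With the classes weighted as in IRF3/7 the log2 ratio turned to -0.07, and it was -0.48 over the cells with a UMI of a monocyte or macrophage marker and none of a dendritic cell marker. That restriction depends on depth and on the marker level, and kept 32.4% of these cells in CTRL, 26.3% in IRF3/7, 13.4% in COX2i and 6.19% in COX2i + 5-AZA, with a median depth below that of all monocytes and macrophages in each library (3654 against 6300.0 UMIs in COX2i + 5-AZA). Markers of cDC2 (6 genes, all detected) summed to 102.9 CPM in the monocytes and macrophages of CTRL, 267.8 CPM in IRF3/7, 169.0 CPM in COX2i and 406.3 CPM in COX2i + 5-AZA. In cDC2 they stood between 1981 and 3092 CPM.

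Differences between libraries were also present inside single classes. In TAM_C1q, macrophages named for complement genes, H2-Ab1 stood at 147 CPM in CTRL, 312 CPM in COX2i and 659 CPM in COX2i + 5-AZA. Of the 9 members with at least 20 UMIs, 5 were at least 2-fold higher in COX2i than in CTRL, against 1.61% of genes, and 4 were in COX2i + 5-AZA against COX2i, where 4.16% of genes were. The class II sum of TAM_C1q was at the non-immune background in CTRL and below the NK cells of the same library in COX2i and COX2i + 5-AZA, so these levels of the chains lie within the range of the background cells. In TAM_cycling, the dividing macrophages, H2-Ab1 was at 590 CPM in CTRL, 887 CPM in COX2i and 2017 CPM in COX2i + 5-AZA, and Ciita at 11.5, 30.4 and 84.0 CPM. Of 9 members with at least 20 UMIs, 1 (Ciita) was at least 2-fold higher in COX2i than in CTRL, against 1.62% of genes. In COX2i + 5-AZA 6 of 9 were at least 2-fold higher than in COX2i, against 4.1% of genes. The members had a median log2 ratio of 1.13 there, and of 0.69 in the NK cells of the same 2 libraries.

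TAM_Spp1, macrophages named for osteopontin, showed another pattern. H2-Ab1 stood at 1954 CPM in CTRL, 3740 CPM in COX2i and 3493 CPM in COX2i + 5-AZA, and the class II sum at 6285, 12056 and 11510 CPM. The level was thus higher in COX2i than in CTRL, and the pooled level was not higher again with 5-azacytidine (log2 ratio -0.0669 against COX2i, 0.0476 under size factors). The median cell was higher with 5-azacytidine, at 40.1 UMIs of the class II sum per 10000 UMIs against 12.9 in COX2i and 2.67 in CTRL. Ciita, like the pooled sum, was close in both drug-treated libraries, at 36.0, 92.7 and 85.0 CPM, and was the only one of 9 members past a 2-fold rise in COX2i against CTRL, where 1.55% of genes were. Hardly any cell of these 3 macrophage classes was annotated in IRF3/7 (7 of TAM_C1q, 10 of TAM_Spp1 and 20 of TAM_cycling), so that library offers no comparison there.

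In Infl_Mono, the inflammatory monocytes of the annotation, the class II sum was 791.0 CPM in the 93 CTRL cells, 5321 CPM in the 4335 cells of IRF3/7, 2792 CPM in the 130 cells of COX2i and 4952 CPM in the 764 cells of COX2i + 5-AZA. The CTRL value lay close to the background, which was 518.8 CPM in non-immune cells of CTRL and 804.6 CPM in NK cells of IRF3/7. In IRF3/7 the class stood far above the NK cells of its own library. In COX2i and COX2i + 5-AZA it stood above them by a much smaller margin, because NK cells were higher there. The class II sums of Infl_Mono in IRF3/7 and COX2i + 5-AZA were thus close, but the levels of the background cells in these libraries were not. IRF3/7 lay 6.73-fold above CTRL, and 7 of 8 members with at least 20 UMIs were at least 2-fold higher, against 6.17% of genes. The medians per cell were 2.00 in CTRL, 3.92 in IRF3/7, 4.26 in COX2i and 12.0 in COX2i + 5-AZA per 10000 UMIs, and the 90th percentiles 19.2, 183.6, 138.5 and 143.3. IRF3/7 was thus highest in the pooled level and at the 90th percentile, but not in the median cell. H2-DMa, which did not pass, stood at 262.5 against 159.0 CPM. H2-Oa passed the fold with 1 UMI in CTRL, and its difference was not detectable at this depth. CTRL cells of this class also carried more macrophage marker UMIs than those of IRF3/7 (52540 against 11190 CPM over 8 genes). The part of these markers in the difference was not tested.

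The level per cell was uneven. Among monocytes and macrophages with at least 2000 UMIs, the median cell of CTRL held 1.33 UMIs of the class II sum per 10000 UMIs, and the cell at the 90th percentile held 59.4. The median was 4.87 in IRF3/7, 2.20 in COX2i and 58.7 in COX2i + 5-AZA, and the 90th percentiles were 230.7, 199.9 and 307.8. The 75th percentiles were 3.91 in CTRL, 75.03 in IRF3/7, 21.2 in COX2i and 177.7 in COX2i + 5-AZA. In IRF3/7 and COX2i the cell at the 75th percentile thus differed from CTRL by more than the median cell did, whereas in COX2i + 5-AZA the median cell stood well above CTRL too. In cDC2 the medians were 628.4, 575.2, 576.9 and 521.3 in CTRL, IRF3/7, COX2i and COX2i + 5-AZA, with 10th percentiles between 212.8 and 434.0.

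**Figure D4:**
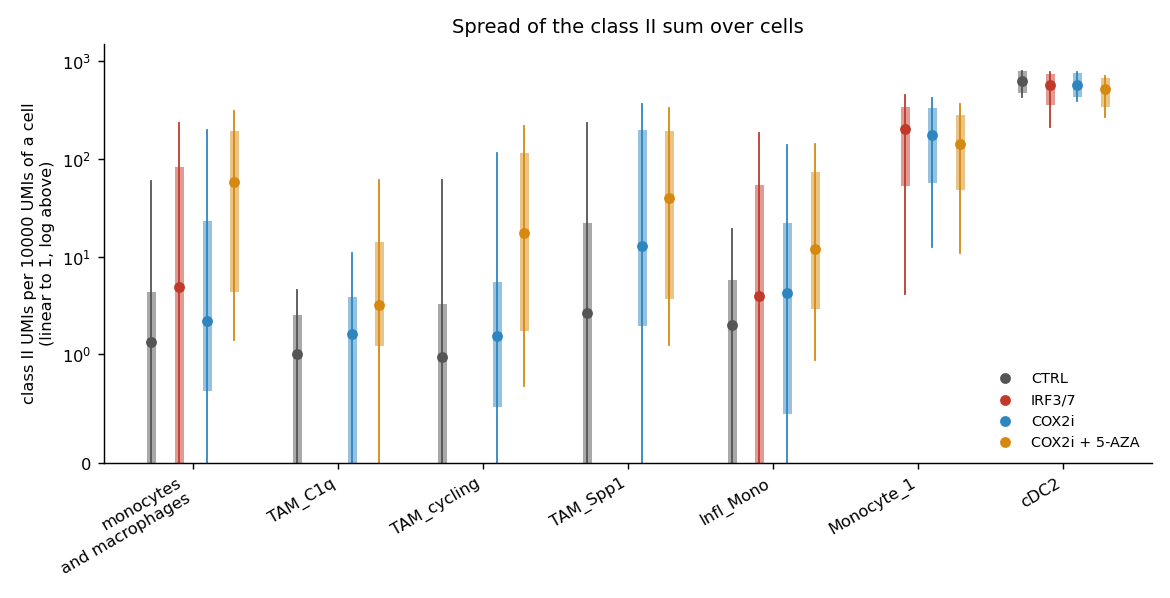
UMIs of H2-Aa, H2-Ab1 and H2-Eb1 per 10000 UMIs of a cell (linear up to 1, log above) in cells with at least 2000 UMIs, by group of cells and library, for groups with at least 50 such cells. Points are medians, thick bars run from the 25th to the 75th percentile and thin lines from the 10th to the 90th. In monocytes and macrophages the median is 1.33 in CTRL and 58.7 in COX2i + 5-AZA.

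Shares of cells with a UMI changed their order once depth was made equal. In monocytes and macrophages, 61.3% of cells in CTRL, 69.7% in IRF3/7, 77.7% in COX2i and 94.5% in COX2i + 5-AZA held a UMI of the class II sum. With each cell thinned to 2000 UMIs, and the 212, 975, 187 and 492 shallower cells left out, the shares were 35.9%, 60.7%, 49.0% and 81.7%, so IRF3/7 stood above COX2i, as it did in CPM. The thinned share in non-immune cells was between 15.1% and 32.3%. Background in NK cells was higher. In COX2i + 5-AZA, without thinning, 16.2% of NK cells with at least 2000 UMIs held no UMI of the sum. For monocytes and macrophages of that library and depth it was 5.31%. In IRF3/7 these values were 56.0% and 30.1%. Thinned shares with a UMI of Ciita were 2.67%, 13.1%, 8.05% and 22.8%, against 0.729% to 1.96% in non-immune cells.

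In cDC2 the class II chains were not higher in the interventions. H2-Ab1 stood at 19129 CPM in CTRL, 15243 CPM in IRF3/7, 17752 CPM in COX2i and 14657 CPM in COX2i + 5-AZA, from 645, 390, 666 and 261 cells. Cd74 was at 39030, 27814, 38834 and 31084 CPM. H2-Ab1 was below CTRL in all 3 interventions, by log2 ratios of -0.33 in IRF3/7, -0.11 in COX2i and -0.38 in COX2i + 5-AZA. The median log2 ratio over all genes in cDC2 was itself -0.29, -0.00304 and -0.14 in the same order, so the value of IRF3/7 was close to that of the typical gene. For the class II sum of IRF3/7 the direction turned with size factors (log2 ratio -0.22 with totals, 0.0538 with size factors). Ciita, in contrast to these genes, was higher in each intervention, at 565 CPM in CTRL, 779 CPM in IRF3/7, 690 CPM in COX2i and 760 CPM in COX2i + 5-AZA. H2-Oa was lower, at 348, 284, 276 and 239 CPM in the same order. With size factors the class II sum of cDC2 remained below CTRL in COX2i + 5-AZA (-0.20).

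H2-Eb2 was the only one of 10 members at least 2-fold higher in cDC2 of IRF3/7 (44 UMIs against 18, 6.01% of all genes past that fold) and of COX2i + 5-AZA (32 UMIs against 18, 4.4% of all genes), and in COX2i 0 of 10 were (3.52% of all genes). Most H2-Eb2 UMIs lay in another class of dendritic cell. CCR7+ DC made up between 0.112% and 1.04% of a library and held 61.8% of all H2-Eb2 UMIs in CTRL, 74.2% in IRF3/7, 51.0% in COX2i and 53.9% in COX2i + 5-AZA. Its level in these cells was 1069 CPM in CTRL (10 cells), 952 CPM in IRF3/7 (66 cells), 453 CPM in COX2i (28 cells) and 256 CPM in COX2i + 5-AZA (87 cells). No other class with at least 10 cells exceeded 33.6 CPM. Of the 2 libraries with at least 50 of these cells, COX2i + 5-AZA lay 1.89 below IRF3/7 on the log2 scale (-2.25 to -1.54). Markers of CCR7+ DC (5 genes) summed to 41.7, 74.7, 175.1 and 257.7 CPM in the cDC2 of CTRL, IRF3/7, COX2i and COX2i + 5-AZA, and their part in the H2-Eb2 of cDC2 was not tested. H2-Eb1 and H2-Eb2 are close relatives, as are H2-DMb1 and H2-DMb2, and probes that bind both copies were not checked.

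The balance between members also set CCR7+ DC apart from other dendritic cells. For each UMI of H2-Ab1 they held 1.73, 1.65, 1.77 and 1.47 UMIs of H2-Aa in CTRL, IRF3/7, COX2i and COX2i + 5-AZA, where cDC2 held 0.975, 1.10, 1.00 and 1.05. The intervals of the 2 classes did not overlap in any library (1.39 to 1.55 in CCR7+ DC and 1.03 to 1.07 in cDC2 of COX2i + 5-AZA). The DM subunits were low in CCR7+ DC. H2-DMb1 stood at 22.7, 43.3, 18.1 and 67.1 CPM there and between 310.2 and 343.2 CPM in cDC2. H2-DMa was between 181.1 and 295.7 CPM in CCR7+ DC and between 713.1 and 985.7 CPM in cDC2. DO transcripts were concentrated in dendritic cells as a whole, which held 81.6% of H2-Oa UMIs in CTRL, 82.9% in IRF3/7, 80.6% in COX2i and 53.2% in COX2i + 5-AZA.

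At the other end, the macrophages of TAM_C1q held few class II transcripts and much H2-DMa for each of them. Of all UMIs of CTRL, TAM_C1q held 29.0% of those of H2-DMa and 3.60% of those of H2-Ab1. The same shares were 1.23% and 1.15% in Ctsk_Macro and 0.754% and 0.123% in Infl_Mono. The trait was thus absent from Ctsk_Macro and not limited to macrophages. TAM_C1q held 0.862, 0.594 and 0.471 UMIs of H2-DMa for each UMI of H2-Ab1 in CTRL, COX2i and COX2i + 5-AZA. TAM_Spp1 held 0.107, 0.0948 and 0.129, and cDC2 0.0465, 0.0534 and 0.0673. The H2-Ab1 of TAM_C1q in CTRL, the denominator of its ratio, was not above the 165.8 CPM of non-immune cells. H2-DMa itself was at 126.3, 185.5 and 310.4 CPM in TAM_C1q of CTRL, COX2i and COX2i + 5-AZA.

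**Figure D5:**
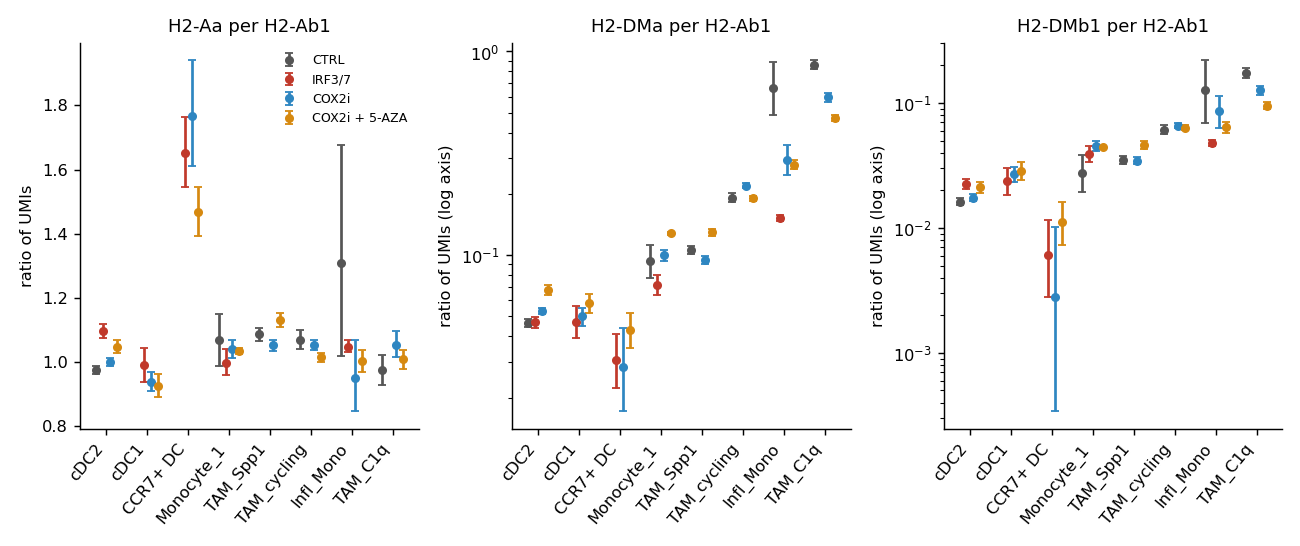
UMIs of H2-Aa, H2-DMa and H2-DMb1 for each UMI of H2-Ab1 in 8 cell classes, by library, with exact 95% counting intervals (the last 2 panels have log axes, and units of fewer than 25 cells are left out). CCR7+ DC stand above the other classes for H2-Aa and below them for H2-DMb1, and TAM_C1q of CTRL is highest for H2-DMa at 0.862.

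Other genes of the class II pathway were counted by the same fold. Of 21 such genes (the RFX and NF-Y subunits that bind the promoters, lysosomal proteases, tetraspanins and others), 1 was at least 2-fold higher and 4 at least 2-fold lower in the monocytes and macrophages of IRF3/7 than of CTRL, beside 9.16% and 32.2% of all genes, and their median log2 ratio was -0.18 against -0.55 over all genes. The one was March1, a ubiquitin ligase that removes class II from the surface, at 240.5 against 85.2 CPM. The 4 lower ones were Ctsl, Ctsd, Cd9 and Cd81, 2 proteases and 2 tetraspanins, with Cd81 at 66.7 against 736.2 CPM. In COX2i against CTRL, 0 of 21 passed that fold in either direction, where 1.93% of all genes were higher and 4.7% lower by it, with a median of -0.0034. In COX2i + 5-AZA, H2-DMb2, a second DM beta chain, was at least 2-fold higher (13.4 against 5.41 CPM, where 5.65% of all genes were) and the protease Ctsd at least 2-fold lower (561.1 against 1270 CPM, where 11.3% of all genes were lower by that fold).

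Named in any case were 4 further genes. Rfx5, a subunit of the complex that recruits CIITA, was at 14.7 CPM in CTRL, 22.9 CPM in IRF3/7, 15.2 CPM in COX2i and 16.7 CPM in COX2i + 5-AZA. Ctss, the protease that trims the invariant chain, stood at 4120, 7665, 4117 and 5997 CPM, and Ifi30, a thiol reductase of the endosome, at 1378, 1695, 1600 and 1784 CPM. Lgmn, an endosomal protease, was lower in each intervention, at 3689, 1909, 2776 and 2098 CPM.

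Class I genes were set beside the members. In monocytes and macrophages, 9 of 9 class I genes were at least 2-fold higher in IRF3/7 than in CTRL, 0 in COX2i and 8 in COX2i + 5-AZA, beside 9.16%, 1.93% and 5.65% of all genes, with medians of 1.82, 0.58 and 1.56. The class I transactivator Nlrc5 was at 40.6, 371.9, 66.2 and 149.7 CPM in CTRL, IRF3/7, COX2i and COX2i + 5-AZA, so its highest level was in IRF3/7, whereas that of Ciita was in COX2i + 5-AZA. B2m, the light chain of class I, stood at 841.6, 1957, 987.0 and 2060 CPM. Irf1, a transcription factor of the interferon response, was at 104.3, 1237, 209.2 and 733.5 CPM. Ifng, the interferon-γ gene, had 1.34 CPM in these cells of IRF3/7 and 0.760 CPM in those of COX2i + 5-AZA, and 3 UMIs each in CTRL and COX2i. Over all cells of a library it stood at 0.103 CPM in CTRL, 54.5 CPM in IRF3/7, 0.470 CPM in COX2i and 9.13 CPM in COX2i + 5-AZA. In cDC2, 9 of 9 class I genes passed the 2-fold rise in IRF3/7 and 6 of 9 in COX2i + 5-AZA, beside 6.01% and 4.4% of all genes, with medians of 1.40 and 1.28, while the members had medians of -0.25 and -0.18, close to the -0.29 and -0.14 of all genes.

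The genes whose level was most like the class II sum were sought over 40 units, each 1 class in 1 library with at least 50 cells. By Pearson's r of log2(CPM + 1), given as a description because the units share libraries, the highest non-members of 8123 genes were Htr7 (0.885), Plbd1 (0.872), H2-DMb2 (0.868), Lsr (0.861) and Itgax (0.839). Among the members themselves, H2-Aa, H2-Ab1 and H2-Eb1 make up the sum, Cd74 had 0.987, Ciita 0.963, H2-DMb1 0.882, H2-DMa 0.864, H2-Ob 0.795, H2-Oa 0.734 and H2-Eb2 0.585. Over the 23 units of monocytes and macrophages, the highest non-members were Klrb1b (0.863), Pdcd1lg2 (0.841), Nt5c (0.822), Plbd1 (0.810) and Ric1 (0.801). Ciita had 0.909 over these units and H2-Oa 0.466.

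Markers of B cells, which express these genes in other settings, were low. Cd79a, Cd79b and Ms4a1 together stood between 3.86 and 9.18 CPM over all cells of a library. They were at 66.7 CPM in the TAM_H2Ab1 cells of IRF3/7 and 2.99 CPM in those of COX2i + 5-AZA. In that class H2-Ab1 was at 3251 CPM (385 cells) and 4199 CPM (419 cells).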

How the data were processed

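Single-cell libraries of CD45+ cells were made with the probe-based Chromium Flex kit. Per the labels the authors used Cell Ranger 7.1.0 with mm10. The authors deposited UMI counts, 1 value for each gene in each cell, that were not normalised. They kept cells with more than 1000 genes in the full reference and left out ribosomal and mitochondrial genes, of which 0 were found here. Their classes came from clustering after batch correction with Harmony across 3 experiments. No removal of doublets is stated in the sources used here, and no doublet caller was run. An alternative left out the 5% of cells with the most UMIs.

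Counts were summed over the cells of a library (monocytes were Infl_Mono, Monocyte_1 and Monocyte_3, and macrophages were Macro, Ctsk_Macro and all classes whose name begins with TAM) and divided by their total. Shares carry Clopper-Pearson intervals, levels Poisson intervals and ratios exact conditional intervals, all at 95% and for counting error only. Molecules were counted by UMI. With 1 library per group no test was made. A gene entered a count of folds if the pair of libraries held 20 or more of its UMIs, a count of 0 was set to 3 UMIs per library, and 3 UMIs were between 0.0381 and 0.114 CPM. The class named DC3 is written CCR7+ DC, and Myofibrobl as non-immune. Thinned shares are expected values. Members, lists and comparisons were chosen with earlier results of these data known. All 10 members were named, with genes of the pathway list past a 2-fold change and Rfx5, Ctss, Ifi30, Lgmn and March1 in any case, comparators, and the 5 non-members with the highest r in each set of units among genes with at least 50 CPM in 1 unit. The marker Ly6c2 was not analysed here, and some items are not reported here. Gene positions came from GENCODE and promoters from RefSeq. Intervals were tested on simulated data. Python 3.11.15, numpy 2.4.6, scipy 1.17.1 and pandas 2.3.3 were used.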

Additional observations from a re-analysis of the deposited data

Results flagged for a closer look

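In 5 comparisons the class II sum had a lower level in cDC2 of the first library than of the second, while it was higher in the monocytes and macrophages of that library. The log2 ratio in cDC2 was -0.22 in IRF3/7 against CTRL, where that in monocytes and macrophages was 1.55. It was -0.0917 in COX2i against CTRL, beside 0.80. It was -0.33 in COX2i + 5-AZA against CTRL, beside 2.12. It was -0.24 in COX2i + 5-AZA against COX2i, beside 1.32, and -0.11 in COX2i + 5-AZA against IRF3/7, beside 0.56. The median log2 ratio over all genes in cDC2 was -0.29, -0.00304, -0.14, -0.11 and 0.125 in the same order. Each group had 1 library, so these differences between cell groups were not tested. With size factors the first of the cDC2 values turned to 0.0538, and the other 4 stayed below 0. The comparisons share libraries and are not independent.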

How the results depend on the processing

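No paired analysis was possible because each group has 1 library, and for the same reason no replicate could be left out. Counting intervals are narrow at these depths, and the spread between tumours is unknown. The IRF3/7 library is the shallowest and has few macrophages, so its values rest on other classes than those of CTRL. The log2 ratio of the class II sum in monocytes and macrophages kept its sign under all 7 alternatives in 4 of the 5 comparisons, but in monocytes alone it was -0.14 for IRF3/7 over CTRL, and COX2i + 5-AZA over COX2i gave -0.0153. The counts of members at least 2-fold higher stayed within 1.5 times with size factors and with no minimum of UMIs. Under 3 settings chosen after seeing the data they did not in all comparisons. With a fixed class mix the count went from 1 to 2 in COX2i against CTRL and from 8 to 0 in COX2i + 5-AZA against COX2i. In monocytes only it went from 7 to 0 in IRF3/7 against CTRL, from 1 to 6 in COX2i against CTRL, from 8 to 1 in COX2i + 5-AZA against COX2i and from 1 to 8 against IRF3/7. In macrophages only it went from 8 to 1 and from 1 to 0 in the last 2 comparisons. In IRF3/7 against CTRL, 1.55 became 2.06 with size factors, 1.56 in cells with more than 1000 genes, 1.30 with cells thinned to 2000 UMIs, 1.28 with equal weight for each cell, 1.48 without the 5% of cells with the most UMIs, 3.07 in cells with a monocyte or macrophage marker and no dendritic cell marker, and 2.75 with the class mix of CTRL, which left 1 class, Infl_Mono, with a CTRL level close to background. In COX2i against CTRL, 0.80 became 0.89 thinned, 0.89 with equal weight, 0.56 by markers and 0.92 with a fixed class mix. In COX2i + 5-AZA against CTRL, 2.12 became 2.28 with size factors, 2.03 thinned, 2.00 with equal weight, 2.16 without the deepest cells, 2.59 by markers and 1.13 with a fixed class mix. Against COX2i, 1.32 became 1.48, 1.14, 1.11, 1.36, 2.04 and 0.39 in the same order. Against IRF3/7, 0.56 became 0.22 with size factors, 0.56 in cells with more than 1000 genes, 0.73 thinned, 0.73 with equal weight, 0.67 without the deepest cells, -0.48 by markers and -0.0728 with a fixed class mix. The restriction by markers kept 2468, 1326, 992 and 545 cells of CTRL, IRF3/7, COX2i and COX2i + 5-AZA, which are unequal and shallower parts of these libraries, so its values do not compare like cells. Within classes, size factors turned the ratio in cDC2 of IRF3/7 against CTRL to 0.0538 and that in TAM_Spp1 of COX2i + 5-AZA against COX2i from -0.0669 to 0.0476. The cause of these changes was not tested.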
